A study of Mus musculus with 6 samples.

Results

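Small nucleolar RNAs (snoRNAs) and the genes that carry them were examined in activated mouse CD8+ T cells grown with or without butyrate. The set held every gene of the deposited count table whose symbol is Gas5 or starts with Snhg, Snora or Snord. Genes were chosen by their summed counts, and a gene was kept where the 6 libraries together held at least 30 counts. This left 78 genes, of which 14 were host genes and 64 were snoRNAs, out of 133 matching symbols and 27179 gene numbers in all. The 64 snoRNAs divided into 38 of the box C/D class (Snord) and 26 of the box H/ACA class (Snora). Just inside the minimum stood Snora74a, Snord14d, Snord1c and Snord43 with 31 counts each, and just outside it stood Snord19 with 29 counts. The other 39 symbols had 1 to 29 counts, Snord19 among them, and 16 had none.

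snoRNAs are short RNAs of the nucleolus that guide chemical modification of ribosomal RNA. Box C/D snoRNAs guide methylation of the ribose and box H/ACA snoRNAs guide the change of uridine to pseudouridine. In mammals most are cut from introns of longer transcripts, and those host transcripts are either messenger RNAs, often for ribosomal proteins and other parts of the translation machinery, or noncoding RNAs such as Gas5 and the Snhg (small nucleolar RNA host gene) transcripts. The spliced noncoding hosts are known as targets of nonsense-mediated decay, the pathway that destroys transcripts with early stop codons. T cells that are activated and divide make many ribosomes, and snoRNAs belong to that programme.

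The libraries of both groups came from cells of gBT-I mice, whose transgenic T cell receptor recognises a peptide from the glycoprotein B of herpes simplex virus. The butyrate libraries were made from spleen cells that received butyrate from day 3 of culture, and the control cells received none. Butyrate is a short-chain fatty acid that inhibits histone deacetylases. Both groups were activated with the peptide gB498-505 and lipopolysaccharide, were fed IL-2 between days 2 and 5 and were collected on day 6, and there were 3 libraries of each. The labels name the cells transgenic CD8+ T cells, and the sources used here do not say whether they were sorted or whether replicates came from separate mice or cultures. The p-values therefore measure the spread between these libraries, which may be technical.

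Library totals ran from 5383380 to 6244350 counts, of which the 78 genes held 0.0700% to 0.115%. The CD8 T cell markers were present in every library. Of 10 tested, 2, Trbc1 and Cd3e, were called lower with butyrate (edgeR, adjusted p under 0.05). That is 20%, near the 22.5% of all tested genes called lower, and 0 were called higher, against 23.5%. Summed over a list, markers of other cells lay at 158 to 459 CPM with butyrate, against 454 to 775 CPM in control, for 7 B cell genes, where CPM are counts after scaling every library to the same total. The ranges were 82.1 to 93.4 CPM against 21.3 to 74.6 CPM for 9 macrophage and dendritic cell genes, 121 to 130 CPM against 74.0 to 83.2 CPM for 4 CD4 T cell genes, and 8.88 to 12.4 CPM against 2.34 to 5.19 CPM for 4 NK cell genes. They were 3.61 to 45.3 CPM against 1.11 to 3.89 CPM for 6 erythroid and platelet genes, and 3.51 to 8.13 CPM against 0 to 0.973 CPM for 6 granulocyte genes. Called higher with butyrate were Cd22 of 3 tested B cell genes, Itgam of 4 macrophage and dendritic cell genes, and Cd4 and Zbtb7b of 3 CD4 T cell genes. Klrb1c, Hbb-b1 and Cxcr2, each the only tested gene of its list, were also called higher. These lists are too short to set against the 23.5% of all tested genes, and 0 of their genes were called lower. Pax5 had no count in any library, and the part of other cells in the results on snoRNA genes was not tested. In bulk RNA, fewer cells of a type and less RNA per cell cannot be told apart.

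The TruSeq RNA kit named in the labels selects polyadenylated RNA, and mature snoRNAs are short and lack a poly(A) tail. Counts on a snoRNA may therefore come from the mature RNA, from unspliced host RNA or from other transcripts that run across it, and these cannot be told apart. All of the 60 member snoRNAs that lay in a gene with a RefSeq-matched GENCODE transcript fell outside the exons of that transcript. In contrast, 39 of the 64 overlapped an exon of some other GENCODE transcript. By position, 25 lay in ribosomal protein genes, 13 in Gas5 or Snhg genes and 24 in other genes with a row in the table. For the other 2 no enclosing gene had a row in the table.

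The 7 snoRNAs that passed the test are shown with their sequences, together with Snord95, which shares the Rack1 gene with Snord96a. Sequences and positions are those of GENCODE M21 on GRCm38, 5′ to 3′. In the box C/D RNAs capitals mark the C box core TGATG near the 5′ end and the D box CTGA near the 3′ end. In Snora64 capitals mark the ACA that stands 3 bases before the 3′ end, and the annotated end of Snora28 holds no ACA at that place. Snord96a (chr11:48802032-48802112, plus strand) and Snord95 (chr11:48803139-48803206, plus strand) lie in Rack1, Snord16a (chr9:64175423-64175521, plus strand) in Rpl4, and Snord69 (chr14:31014287-31014366, minus strand) in Gnl3. Snord99 (chr4:132310691-132310764, plus strand) lies in Snhg12, Snord15b (chr7:99479563-99479707, minus strand) in Rps3, Snora64 (chr17:24720772-24720905, plus strand) in Rps2, and Snora28 (chr12:111540941-111541067, plus strand) in Eif5.
Snord96a: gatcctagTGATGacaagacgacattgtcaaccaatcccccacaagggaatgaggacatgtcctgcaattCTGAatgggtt
Snord95: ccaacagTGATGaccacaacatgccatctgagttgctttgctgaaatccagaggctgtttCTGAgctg
Snord16a: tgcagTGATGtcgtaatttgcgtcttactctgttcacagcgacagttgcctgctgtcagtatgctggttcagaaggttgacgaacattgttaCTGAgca
Snord69: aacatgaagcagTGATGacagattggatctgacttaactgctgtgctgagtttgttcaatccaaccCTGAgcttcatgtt
Snord99: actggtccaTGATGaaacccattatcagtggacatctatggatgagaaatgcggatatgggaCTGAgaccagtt
Snord15b: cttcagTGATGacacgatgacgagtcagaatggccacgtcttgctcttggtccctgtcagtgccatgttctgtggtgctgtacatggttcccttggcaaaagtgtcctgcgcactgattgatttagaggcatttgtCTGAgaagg
Snora64: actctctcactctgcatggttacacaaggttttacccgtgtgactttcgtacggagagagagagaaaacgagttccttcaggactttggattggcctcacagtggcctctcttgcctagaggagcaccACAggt
Snora28: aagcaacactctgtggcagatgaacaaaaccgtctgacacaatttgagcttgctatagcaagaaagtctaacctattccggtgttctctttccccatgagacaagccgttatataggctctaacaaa

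Searched on the transcribed strand within 20 bases of the ends, both the C box core and the D box were found in 32 of the 38 member C/D snoRNAs (84.2%), and the ACA was found at its place in 21 of the 26 H/ACA snoRNAs (80.8%). Among all 1507 snoRNA genes of GENCODE M21, of either class, 23.6% held both the C and D letters and 18.3% held the ACA. Some members are close copies of each other, and the treatment of reads that match several places is not stated. Snora73a and Snora73b were identical at 96.6% of positions and Snord14c and Snord14d at 97.7%, so that the split of counts between them is uncertain.

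Most host genes were higher with butyrate. All 13 hosts that could be tested had a positive log2 fold change (butyrate over control), with a median of 0.53 against 0.0034 over all 11740 tested genes. Of the 13, 8 passed edgeR's quasi-likelihood test at an adjusted p under 0.05 (Benjamini-Hochberg over all tested genes), which is 61.5% and compares with 23.5% of all tested genes called higher. No host was called lower, against 22.5% of all tested genes. At an unadjusted p under 0.05 there were 11 hosts higher and 0 lower. The share of all tested genes at that cut was not counted, so no conclusion is drawn from these 11. In 9 of the 13 (69.2%) every butyrate library lay above every control library, as it did in 28.9% of all tested genes. The summed level of the 14 hosts was 652, 824 and 766 CPM in the butyrate libraries, against 546, 582 and 504 CPM in the control libraries, and the groups did not overlap. With the replicate number as a block, 11 of the 13 hosts were called higher, against 3220 of all 11740 tested genes. Without 1 library at a time 6 to 10 hosts were called higher, against 2369 to 2633 of all tested genes.

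**Figure D1:**
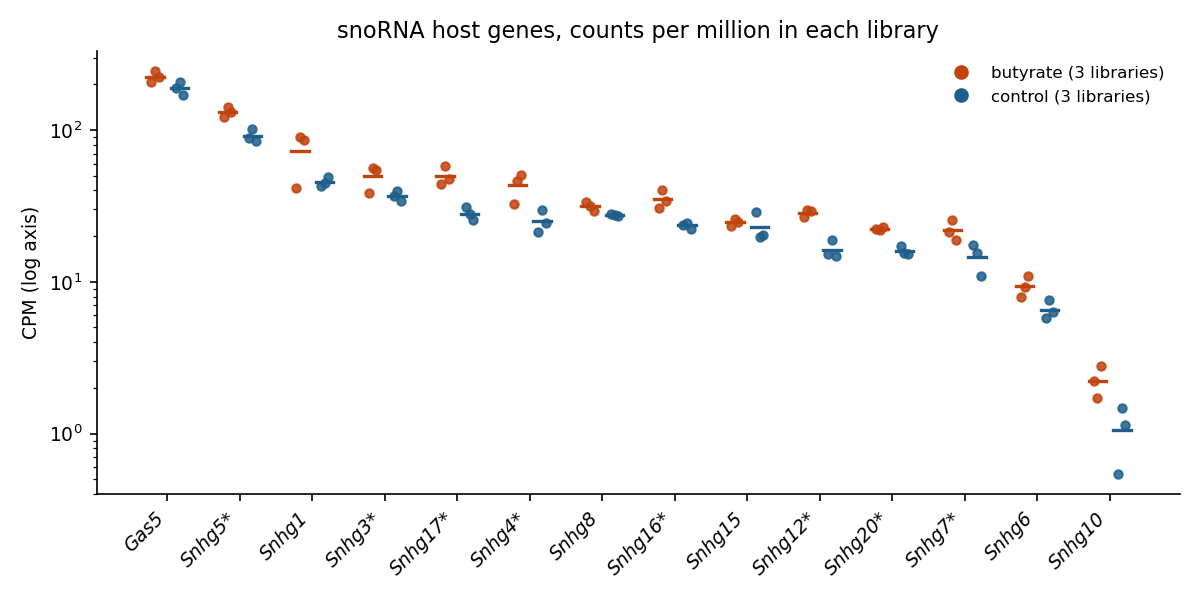
Level in CPM of the 14 host genes on a log axis, ordered by total count, with butyrate at the left and control at the right of each gene. Points are libraries, bars are means of 3, and an asterisk marks the 8 hosts called by edgeR; the Snhg1 value of butyrate replicate 1 lies just below the control values.

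Snhg17, a noncoding host on chromosome 2 (158353700 to 158361522 on GRCm38, minus strand), had 44.2, 57.6 and 47.5 CPM in the butyrate libraries, against 31.0, 27.8 and 25.6 CPM in the control libraries. The groups did not overlap and the log2 fold change was 0.82 ± 0.13 (SE, adjusted p = 0.0010, edgeR). Part of its exon sequence, 132 bases, overlapped the predicted gene Gm23925 on the same strand. Snhg12 (chromosome 4, 132308678 to 132311024, plus strand), which encloses 4 of the member snoRNAs, had 26.6, 29.9 and 29.2 CPM with butyrate, against 15.3, 18.7 and 14.8 CPM in control. Each butyrate library of Snhg12 was again above each control library, at a log2 fold change of 0.82 ± 0.13 (adjusted p = 0.0011, edgeR). Snhg4, which encloses Snora74a, had 32.7, 45.9 and 50.6 CPM with butyrate, against 21.2, 29.7 and 24.3 CPM in control. Its log2 fold change was 0.78 ± 0.18 (adjusted p = 0.0075, edgeR), with the lowest butyrate library just above the highest control library.

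Snhg5 (chromosome 9, 88521052 to 88522897, minus strand), the host known in human for the snoRNA U50, had 122, 143 and 131 CPM in the butyrate libraries, against 88.7, 101 and 84.5 CPM in the control libraries. Its log2 fold change of 0.53 ± 0.10 (adjusted p = 0.0026, edgeR) had the smallest standard error of the tested hosts. Snhg16 (chromosome 11, 116671660 to 116675798, plus strand), which encloses Snord1c, had 30.7, 40.4 and 33.8 CPM with butyrate, against 23.8, 24.5 and 22.4 CPM in control, a log2 fold change of 0.57 ± 0.13 (adjusted p = 0.0059, edgeR). On the opposite strand 497 bases of its exons overlap St6galnac2, and whether counting used the strand is not stated. Snhg20 (chromosome 11, 117076783 to 117078955, plus strand) had 22.2, 21.8 and 22.9 CPM with butyrate, against 17.3, 15.4 and 15.2 CPM in control. The 3 butyrate values of Snhg20 were close together and above all controls, at a log2 fold change of 0.48 ± 0.12 (adjusted p = 0.0088, edgeR).

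Snhg7 and Snhg3 passed the test by less. Snhg7 (chromosome 2, 26637176 to 26640244, minus strand), which encloses Snora17 and Snora43, had 21.3, 25.4 and 18.8 CPM with butyrate, against 17.5, 15.4 and 10.9 CPM in control. The groups did not overlap, and the log2 fold change was 0.59 ± 0.19 (adjusted p = 0.032, edgeR). The call was lost without butyrate replicate 1 or 2 or control replicate 2 or 3 (adjusted p of 0.055 to 0.121) and with DESeq2 (adjusted p = 0.052). Snhg3 (chromosome 4, 132351933 to 132353686, minus strand), which encloses Snora73a and Snora73b, had 38.3, 55.9 and 54.9 CPM with butyrate, against 36.7, 39.5 and 34.2 CPM in control. Butyrate replicate 1 lay between the control libraries, and the log2 fold change was 0.43 ± 0.15 (adjusted p = 0.041, edgeR). Without any single library other than butyrate replicate 1 the call was lost (adjusted p of 0.066 to 0.139), as it was without the filter on low counts (0.050), with DESeq2 (0.060) and with limma voom (0.051). Exons of Snhg3 overlap Rcc1 by 135 bases on the same strand and the predicted gene Gm17300 by 705 bases on the opposite one.

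The 5 other tested hosts were not called in the main fit, which has no replicate block. Snhg1 (chromosome 19, 8723487 to 8726326, plus strand), which encloses Snord22, had 41.2, 90.4 and 85.7 CPM with butyrate, against 42.7, 45.1 and 48.7 CPM in control. Butyrate replicate 1 stood below all control libraries and the other 2 far above them, so that the log2 fold change of 0.67 ± 0.25 had an adjusted p of 0.054 (edgeR). With butyrate replicate 1 left out, Snhg1 had a log2 fold change of 0.95 (adjusted p = 0.00029), and with the replicate block it was 0.62 (adjusted p = 0.015). Gas5 (chromosome 1, 161034601 to 161038539, plus strand), named for its high level in growth-arrested cells and the host with most counts, had 206, 245 and 223 CPM with butyrate, against 188, 209 and 169 CPM in control. The groups of Gas5 overlapped, and its log2 fold change was 0.25 ± 0.10 (adjusted p = 0.075, and 0.023 with the replicate block, edgeR). Without butyrate replicate 1 it passed the test (adjusted p = 0.047).

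Snhg6 (chromosome 1, 9942025 to 9944118, minus strand) had 7.95, 9.28 and 10.9 CPM with butyrate, against 5.76, 7.60 and 6.33 CPM in control. The groups of Snhg6 did not overlap, at a log2 fold change of 0.52 ± 0.20 (adjusted p = 0.064, and 0.040 with the replicate block, edgeR). Snhg6 passed without butyrate replicate 1 (0.049). Its exons overlap Mcmdc2 by 127 bases on the opposite strand. Snhg8 (chromosome 3, 123507552 to 123508336, minus strand) had 33.7, 31.8 and 29.4 CPM with butyrate, against 27.9, 27.5 and 26.9 CPM in control, a log2 fold change of 0.21 ± 0.10 (adjusted p = 0.13, edgeR). Snhg15 (chromosome 11, 6525591 to 6528760, minus strand) had 23.3, 26.0 and 24.8 CPM with butyrate, against 29.0, 19.7 and 20.3 CPM in control. Control replicate 1 of Snhg15 was above every butyrate library, and its log2 fold change was 0.10 ± 0.16 (adjusted p = 0.62, edgeR). Snhg10, the 14th host, had too few counts for the test, 12, 10 and 15 in the butyrate libraries, against 3, 8 and 7 in the control libraries.

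Transcripts that begin with a C followed by a run of pyrimidines (a 5′ terminal oligopyrimidine tract, 5′ TOP) are known to share control of their translation, and Gas5 and the ribosomal protein genes are known members. A C followed by at least 4 bases that are C or T, on the transcribed strand, starting within 10 bases of an annotated start, was found in 8 of the 12 hosts with an entry in the RefSeq promoter table (66.7%), against 34.4% of all 27025 genes there. It was found for Gas5, Snhg3, Snhg5, Snhg7, Snhg8, Snhg10, Snhg12 and Snhg16, which include hosts that were called and hosts that were not, and it was not found in these windows for Snhg1, Snhg15, Snhg17 and Snhg20. The 80 bases from 50 before to 30 from the start are given for 2 called hosts, Snhg12 (chr4:132308628-132308707, plus strand) and Snhg16 (chr11:116671610-116671689, plus strand), and for 2 that were not called, Gas5 (chr1:161035116-161035195, plus strand, 1 of 2 annotated starts) and Snhg8 (chr3:123508307-123508386, minus strand). They are from RefSeq on GRCm38.p6, and the run is in capitals.
Snhg12: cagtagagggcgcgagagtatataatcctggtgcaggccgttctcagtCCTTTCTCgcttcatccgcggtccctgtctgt
Snhg16: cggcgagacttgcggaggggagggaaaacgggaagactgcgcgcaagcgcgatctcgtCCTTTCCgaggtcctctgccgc
Gas5: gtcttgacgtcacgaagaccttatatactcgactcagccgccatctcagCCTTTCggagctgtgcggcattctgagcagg
Snhg8: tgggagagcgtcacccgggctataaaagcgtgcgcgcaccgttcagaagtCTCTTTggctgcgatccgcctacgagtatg

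The snoRNAs themselves also lay mostly above control with butyrate, but few passed the test. Of the 64, 45 had enough counts for it, and 39 of those had a positive and 6 a negative log2 fold change, with a median of 0.42 against 0.0034 over all tested genes. The test called 6 higher, Snord96a, Snord16a, Snord69, Snord99, Snord15b and Snora64, and 1 lower, Snora28. The 6 called higher are 13.3% of the 45, below the 23.5% of all tested genes, and below the 34.2% called higher among the 3913 tested genes of lowest mean CPM (up to 20.7 CPM). Every butyrate library lay above every control library in 17 of the 45 (37.8%, against 28.9% of all tested genes). At an unadjusted p under 0.05 there were 15 higher and 1 lower. The share of all tested genes at that cut was not counted, so these numbers are not set against it.

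The counts behind single snoRNAs were small, with a median total of 87.5 over the 6 libraries, and standard errors ran from 0.13 to 0.41 on the log2 scale. DESeq2, run without the filter on low counts, called 1 of the 64, Snord96a, higher. It called 2637 of its 14357 tested genes higher. The replicate block called 11 of 45, of which 10 were higher, against 3220 of 11740 tested genes called higher with the block. With 1 library left out, 3 were called without butyrate replicate 2, 4 without butyrate replicate 3, 2 without control replicate 2 and 3 without control replicate 3. Snora28 was among the calls only without butyrate replicate 3. Upper quartile scaling called 14 of 45, of which 13 were higher, against 3338 of 11740 tested genes called higher. It also moved the share of higher among all calls to 61.8%, against 51.1% with the main scaling.

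By class, 5 of 24 tested C/D snoRNAs (20.8%) and 1 of 21 tested H/ACA snoRNAs (4.76%) were called higher, and the classes were not tested against each other. Their median log2 fold changes were 0.41 and 0.42. Summed over the 37 C/D snoRNAs other than Snord96a, the level was 108, 136 and 130 CPM in the butyrate libraries, against 91.3, 97.4 and 86.1 CPM in the control libraries. Summed over the 26 H/ACA snoRNAs it was 118, 136 and 124 CPM with butyrate, against 105, 105 and 93.4 CPM in control. In neither class did the summed groups overlap, and the ratio of the means was 1.36 for C/D and 1.24 for H/ACA.

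**Figure D2:**
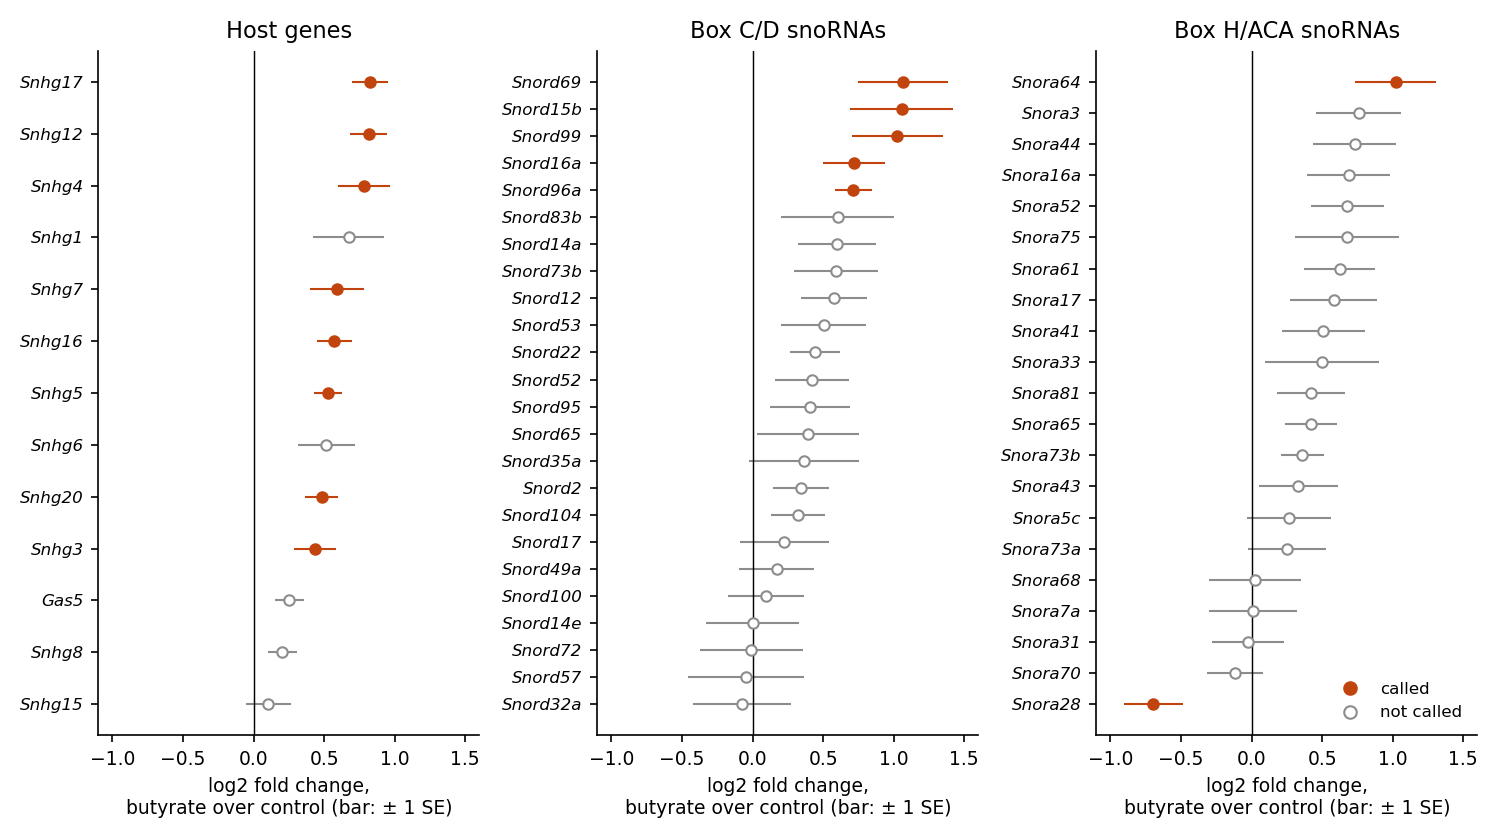
Log2 fold change, butyrate over control, of the 13 tested hosts, 24 tested C/D snoRNAs and 21 tested H/ACA snoRNAs, with bars of 1 standard error and filled points for genes called by edgeR. Hosts lie at 0.10 to 0.82, and snoRNAs spread from -0.69 to 1.06 with longer bars.

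Snord96a held 1197 of the 8669 counts on member snoRNAs (13.8%), more than any other. It had 36.6, 50.03 and 45.8 CPM in the butyrate libraries, against 27.0, 28.6 and 25.3 CPM in the control libraries. The groups did not overlap, the log2 fold change was 0.71 ± 0.13 (adjusted p = 0.0024, edgeR), and it was called under every alternative tried. Its enclosing gene Rack1 encodes a scaffold protein of the small ribosomal subunit and had 2530, 3658 and 3556 CPM with butyrate, against 1749, 1488 and 1511 CPM in control (log2 fold change 1.04 ± 0.15, adjusted p = 0.00068, edgeR). Snord95 in the same gene was far less covered, with 15, 15 and 15 counts with butyrate, against 11, 9 and 15 in control (log2 fold change 0.40 ± 0.28, adjusted p = 0.30, edgeR).

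The other called C/D snoRNAs had between 76 and 182 counts. Snord16a, in the gene of the large subunit protein Rpl4, had 7.77, 6.88 and 5.54 CPM with butyrate, against 3.96, 4.08 and 4.22 CPM in control (log2 fold change 0.72 ± 0.22, adjusted p = 0.026, edgeR). Snord69, in the gene of the nucleolar GTPase Gnl3 (nucleostemin), had 3.14, 5.33 and 4.80 CPM with butyrate, against 1.80, 2.78 and 1.78 CPM in control (log2 fold change 1.06 ± 0.32, adjusted p = 0.023, edgeR). Snord99, in Snhg12, had 3.33, 4.13 and 4.80 CPM with butyrate, against 2.70, 2.04 and 1.30 CPM in control (log2 fold change 1.03 ± 0.32, adjusted p = 0.029, edgeR). In each of these the groups did not overlap. Snord15b, in the gene of the small subunit protein Rps3, had 2.03, 3.44 and 3.70 CPM with butyrate, against 1.98, 1.11 and 1.30 CPM in control (log2 fold change 1.06 ± 0.37, adjusted p = 0.042, edgeR). Its lowest butyrate library was barely above its highest control library.

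None of these 4 calls held under all alternatives. Snord16a was lost without any library other than butyrate replicate 3 (adjusted p of 0.057 to 0.088) and with DESeq2 (0.12). Snord69 was lost without butyrate replicate 2 or 3 or control replicate 1 or 3 (0.064 to 0.090) and with DESeq2 (0.078). Snord99 was lost without butyrate replicate 2 or 3 or control replicate 2 or 3 (0.077 to 0.0996) and with DESeq2 (0.10). The call of Snord15b was lost without the same 4 libraries (0.115 to 0.131), without the filter (0.068), with DESeq2 (0.15) and with limma voom (0.054).

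Both H/ACA calls were for RNAs with 131 and 171 counts. Snora64, in the gene of the small subunit protein Rps2, had 5.73, 4.99 and 4.99 CPM with butyrate, against 3.42, 1.67 and 2.60 CPM in control, at a log2 fold change of 1.02 ± 0.29 (adjusted p = 0.018, edgeR). It was lost without butyrate replicate 1 (0.053), without control replicate 2 (0.061) and with DESeq2 (0.058). Snora28 was the only member called lower, with 3.51, 3.78 and 4.25 CPM with butyrate, against 5.94, 5.94 and 6.81 CPM in control, at a log2 fold change of -0.69 ± 0.21 (adjusted p = 0.025, edgeR). All its butyrate libraries lay below all its control libraries, and the call was lost without any library other than butyrate replicate 3 (0.055 to 0.088) and with DESeq2 (0.13). Its enclosing gene Eif5, which encodes a translation initiation factor, was also called lower, with a mean of 285 ± 20.6 CPM with butyrate and 356 ± 34.0 CPM in control (SD, n = 3 each, log2 fold change -0.32 ± 0.10, adjusted p = 0.024, edgeR). The Eif5 call was lost without butyrate replicate 1 (0.063), butyrate replicate 2 (0.076), control replicate 1 (0.067) or control replicate 3 (0.107) and with upper quartile scaling (0.073).

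**Figure D3:**
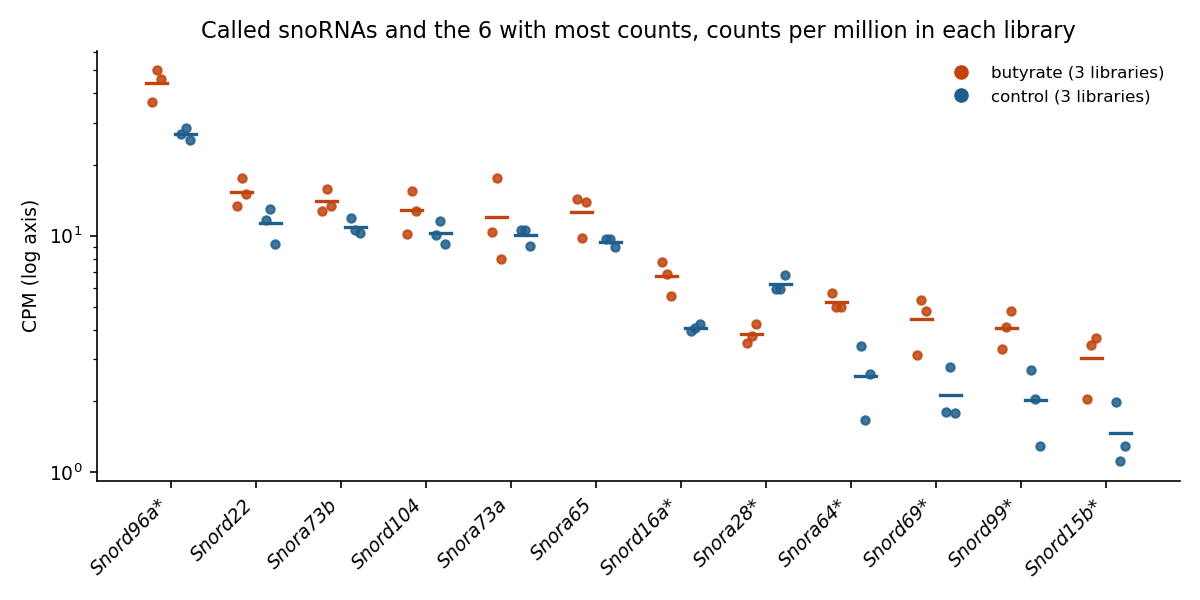
Level in CPM on a log axis of the 7 called snoRNAs (asterisks) and the 6 snoRNAs with most counts, Snord96a being in both, with butyrate at the left and control at the right. Points are libraries and bars are means of 3; Snora28 is the one shown with every butyrate point below the control points.

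The 5 other snoRNAs with most counts were not called. Snord22, known as U22 and needed for maturation of the small subunit RNA in frog oocytes, had 13.3, 17.5 and 15.0 CPM with butyrate, against 11.7, 13.0 and 9.25 CPM in control (log2 fold change 0.44 ± 0.18, adjusted p = 0.070, and 0.035 with the replicate block, edgeR). Snora73b, known as U17 and acting in ribosomal RNA cleavage, had 12.8, 15.8 and 13.3 CPM with butyrate, against 11.9, 10.6 and 10.2 CPM in control (log2 fold change 0.36 ± 0.15, adjusted p = 0.084, edgeR). In both the butyrate libraries lay above all control libraries. Its near copy Snora73a had 10.4, 17.5 and 7.95 CPM with butyrate, against 10.6, 10.6 and 9.08 CPM in control, with the groups overlapping (log2 fold change 0.25 ± 0.27, adjusted p = 0.48, edgeR), and the log2 fold change was -0.14 without butyrate replicate 2. Snord104 had 10.2, 15.5 and 12.8 CPM with butyrate, against 10.1, 11.5 and 9.25 CPM in control (log2 fold change 0.32 ± 0.19, adjusted p = 0.20, edgeR). Snora65, in the gene of the large subunit protein Rpl12, had 14.2, 9.80 and 13.9 CPM with butyrate, against 9.72, 9.64 and 8.92 CPM in control (log2 fold change 0.42 ± 0.18, adjusted p = 0.092, edgeR). Butyrate replicate 2 of Snora65 was hardly above the controls, and without it the adjusted p was 0.029.

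The remaining tested snoRNAs had log2 fold changes between -0.12 and 0.76. The highest of them was Snora3, in Rpl27a, with 31, 28 and 35 counts with butyrate, against 27, 13 and 17 in control (log2 fold change 0.76 ± 0.30, adjusted p = 0.067, and 0.035 with the replicate block, edgeR), and the lowest was Snora70, in Rpl10 (-0.12 ± 0.20, adjusted p = 0.66). Both were picked after their values were seen. The 19 snoRNAs left out of the test had 31 to 57 counts in all, and 15 of them had a higher mean CPM with butyrate than in control. The member minimum was set on the summed counts of both groups. Some of the 19 could therefore reach it only through the group in which they were higher. The same share was not taken over all genes of such counts, so no conclusion is drawn from 15 of 19. Without the filter edgeR called 0 of the 19 snoRNAs and Snhg10, 20 genes in all, with 3 at an unadjusted p under 0.05, and DESeq2 called 0.

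Hosts and the snoRNAs inside them can be set side by side. Snhg12 encloses 3 H/ACA snoRNAs and Snord99. Snora61 had 28, 47 and 36 counts with butyrate, against 20, 22 and 32 in control, a log2 fold change of 0.62 ± 0.25 (adjusted p = 0.072, and 0.041 with the replicate block, edgeR). Snora16a had 27, 38 and 22 counts with butyrate, against 22, 19 and 14 in control (0.69 ± 0.30, adjusted p = 0.087, and 0.042 with the replicate block). Snora44 had 15, 18 and 19 counts with butyrate, against 9, 13 and 10 in control (0.73 ± 0.30, adjusted p = 0.071). Beside the 0.82 of Snhg12 and the 1.03 of Snord99, all 4 snoRNAs of the gene had a positive log2 fold change and 1 was called, or 3 with the replicate block.

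Over all 9 tested snoRNAs inside a Gas5 or Snhg gene the log2 fold changes were positive, 0.25 to 1.03, with a median of 0.58 for the snoRNAs and 0.63 for their hosts. In 8 of these 9 pairs the snoRNA had the smaller log2 fold change. Several pairs share a host, most often Snhg12, whose value then counts more than once, while the host median takes each host once. Of the 9 snoRNAs, 1 was called higher (11.1%, against 23.5% of all tested genes). The 13 member snoRNAs in Gas5 or Snhg genes had 31 to 447 counts each. Snord47 is the only member snoRNA of Gas5, with 2, 6 and 18 counts with butyrate, against 0, 6 and 6 in control, and was too low for the test, as were Snora74a of Snhg4, Snord1c of Snhg16 and Snora78 of Snhg9.

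Most member snoRNAs lay outside the Snhg genes, and the genes that enclose them were often higher with butyrate. The 62 snoRNAs with an enclosing gene in the table lay in 44 genes, of which 43 were tested, 29 were called higher (67.4%, against 23.5% of all tested genes) and 1, Eif5, lower. Among the 19 ribosomal protein genes 15 were called higher and none lower, with a median log2 fold change of 0.32 and a range of 0.12 to 0.71. The largest of these was Rps3 with a mean of 2290 ± 422 CPM with butyrate and 1404 ± 35.6 CPM in control (SD, n = 3 each, log2 fold change 0.71 ± 0.13, adjusted p = 0.0023, edgeR). Rpl4 averaged 1953 ± 435 CPM with butyrate and 1338 ± 191 CPM in control (0.55 ± 0.17, adjusted p = 0.028), Rps2 295 ± 21.6 CPM with butyrate and 227 ± 10.1 CPM in control (0.38 ± 0.09, adjusted p = 0.0070), and Rpl12 47.8 ± 3.23 CPM with butyrate and 38.6 ± 2.85 CPM in control (0.31 ± 0.10, adjusted p = 0.033). Ribosomal protein genes have many processed copies in the genome, so their counts are uncertain as well. Without butyrate replicate 2, control replicate 1 or control replicate 3 the number of enclosing genes called was 17, 19 and 15, against 30 with all libraries.

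Of the 17 enclosing genes that are neither hosts of the Snhg kind nor ribosomal protein genes, 9 were called higher. Rack1 was the highest. Gnl3, which encloses Snord69, averaged 60.6 ± 7.39 CPM with butyrate and 47.2 ± 6.05 CPM in control (SD, n = 3 each, log2 fold change 0.36 ± 0.13, adjusted p = 0.042, edgeR), a call lost without butyrate replicate 2 or 3 or control replicate 2 or 3 (0.101 to 0.138), without the filter (0.065) and with DESeq2 (0.079). The Rpl4 call was lost without butyrate replicate 1 or 2 or control replicate 1 or 3 (0.060 to 0.102). The Rpl12 call was lost without any library other than butyrate replicate 1 (0.052 to 0.112), without the filter (0.073) and with DESeq2 (0.11).

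In 44 pairs both the snoRNA and its enclosing gene were tested, and 34 enclosing genes made up these pairs. Both log2 fold changes were positive in 36 pairs and both negative in 1. In 5 the snoRNA was negative and the enclosing gene positive, and in 2 the reverse was found. The snoRNA had the larger log2 fold change in 19 of the 44. Across the pairs Pearson's r was 0.55 and Spearman's rho was 0.49, given as a description, since all pairs share the same 6 libraries, some share an enclosing gene and reads from host introns count toward the snoRNA.

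**Figure D4:**
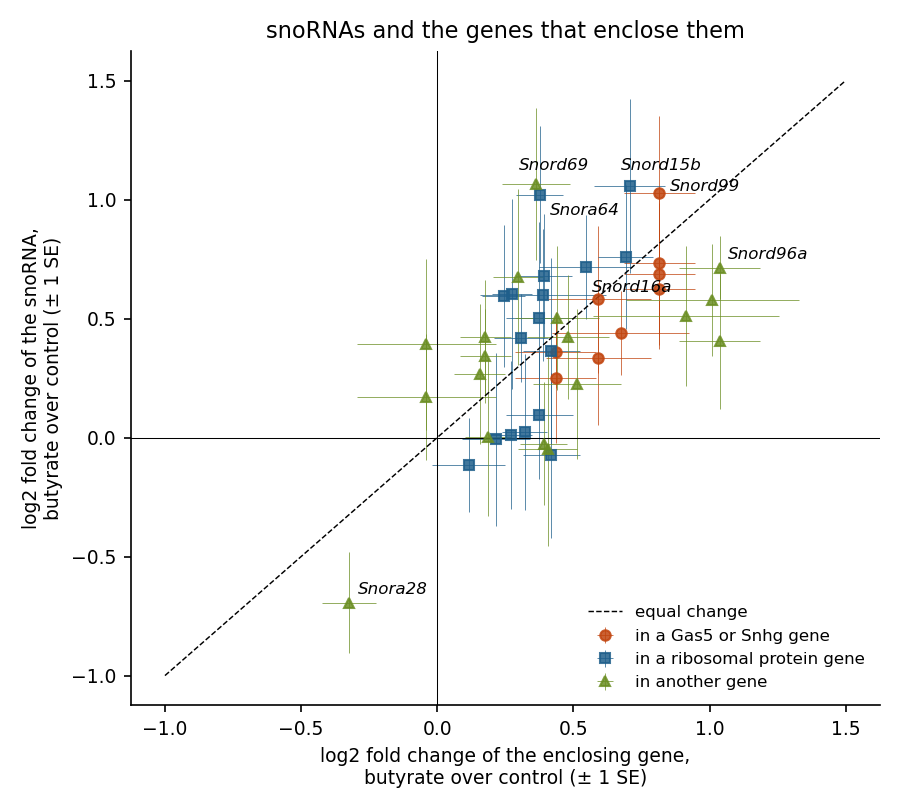
Log2 fold change of 44 snoRNAs (vertical) against that of the gene that encloses each (horizontal), butyrate over control, with bars of 1 standard error, marked by kind of enclosing gene; the dashed line is equal change. Named points are the 7 called snoRNAs; Snora28 in Eif5 stands alone at the lower left, and Snord96a in Rack1 lies below the line.

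The genes for the proteins that form snoRNA particles changed in part at the RNA level, and protein was not measured. Of 8 core protein genes, 4 were called higher (50%, against 23.5% of all tested genes) and 0 lower (against 22.5%). The median log2 fold change of the 8 was 0.37, against 0.0034 over all tested genes. Nop56 and Nop58, which with Snu13 (the 15.5K protein) belong to the box C/D particle, and Nop10 of the box H/ACA particle were the 4. Nop10 averaged 133 ± 8.03 CPM with butyrate and 91.9 ± 0.860 CPM in control (SD, n = 3 each, log2 fold change 0.53 ± 0.08, adjusted p = 0.00079, edgeR). Snu13 had a log2 fold change of 0.47 ± 0.09 (adjusted p = 0.0033) and Nop56, which itself encloses Snord57, one of 0.41 ± 0.11 (adjusted p = 0.015). Both modifying enzymes were not called, the methylase Fbl at -0.41 ± 0.36 (adjusted p = 0.37) and the pseudouridine synthase Dkc1 at -0.10 ± 0.12 (adjusted p = 0.53), and these 2 were picked after their values were seen. Without butyrate replicate 2 or control replicate 3, 2 of the core protein genes were called. In these 2 fits the adjusted p of Nop56 was 0.052 and 0.056 (edgeR).

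Of 14 tested assembly factors, 3 were called higher (21.4%, near the 23.5% of all tested genes) and 1 lower (7.14%, against 22.5%), with a median log2 fold change of 0.15. Nolc1, a nucleolar chaperone of both particle classes, averaged 333 ± 44.5 CPM with butyrate and 193 ± 7.22 CPM in control (SD, n = 3 each, log2 fold change 0.79 ± 0.11, adjusted p = 0.00052, edgeR). Naf1, needed for assembly of H/ACA particles, had a log2 fold change of 0.64 ± 0.14 (adjusted p = 0.0060) and Nufip1, an adaptor for C/D particles, one of 0.36 ± 0.10 (adjusted p = 0.021). Pih1d1, part of the R2TP chaperone complex, was lower at -0.64 ± 0.12 (adjusted p = 0.0022). The Nufip1 call was lost without butyrate replicate 2 or 3 or control replicate 2 or 3 (0.051 to 0.066) and with DESeq2 (0.11).

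Nonsense-mediated decay factors, whose pathway is known to degrade the spliced noncoding hosts, were called higher in 1 of 14 (7.14%, against 23.5% of all tested genes) and lower in 6 (42.9%, against 22.5%), with a median log2 fold change of -0.17. Upf3a, a paralog of the decay factor Upf3b, averaged 21.4 ± 1.23 CPM with butyrate and 39.9 ± 4.31 CPM in control (SD, n = 3 each, log2 fold change -0.90 ± 0.12, adjusted p = 0.00042, edgeR). Smg6, the endonuclease of the pathway, was lower at -0.61 ± 0.09 (adjusted p = 0.00073). Rbm8a, a subunit of the exon junction complex, was higher at 0.25 ± 0.08 (adjusted p = 0.033). Upf1, the central helicase, had a log2 fold change of 0.06 ± 0.09 (adjusted p = 0.64), and it was picked after its value was seen. In all, 4 were called without butyrate replicate 2, 3 without butyrate replicate 3, 4 without control replicate 1, 3 without control replicate 2 and 4 with upper quartile scaling, and without butyrate replicate 3 or control replicate 2 the share called lower was near that of all tested genes. The call of Rbm8a was lost without any library other than butyrate replicate 1 (0.061 to 0.103), without the filter (0.097) and with DESeq2 (0.12).

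The list of intron debranching and RNA exosome genes includes factors that free and trim intronic snoRNAs, though not every gene in it does so. It had 3 of 17 called higher (17.6%) and 4 lower (23.5%), near the 23.5% and 22.5% of all tested genes, and a median log2 fold change of -0.05. Exosc8, a ring subunit of the exosome, averaged 44.7 ± 3.45 CPM with butyrate and 69.7 ± 1.75 CPM in control (SD, n = 3 each, log2 fold change -0.64 ± 0.09, adjusted p = 0.00060, edgeR), while the subunit Exosc5 was higher at 0.49 ± 0.10 (adjusted p = 0.0050). The cytoplasmic exonuclease Xrn1 was lower at -0.62 ± 0.15 (adjusted p = 0.010) and the poly(A) polymerase Tent4a at -0.28 ± 0.09 (adjusted p = 0.025). The exosome nuclease Dis3 was higher at 0.30 ± 0.09 (adjusted p = 0.023) and the cap subunit Exosc2 at 0.38 ± 0.14 (adjusted p = 0.049). In this list 4 genes were called without each of butyrate replicate 1 and 3 and control replicates 1, 2 and 3, and 3 by DESeq2. Dis3, Tent4a and Exosc2 each lost the call without at least 4 of the 6 libraries (0.054 to 0.148) and with DESeq2 (0.061 to 0.102).

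Other RNA classes were set beside these. Of 25 other short noncoding RNA genes, 21 had a row in the table and 3 passed the filter, Rpph1, Rn7sk and Rmrp, of which edgeR called 0 (0 at an unadjusted p under 0.05, and 0 by DESeq2). Rn7sk, the 7SK RNA that holds the elongation factor P-TEFb inactive, had 8.14, 7.22 and 10.9 CPM with butyrate, against 8.28, 6.49 and 8.11 CPM in control, with the groups overlapping (log2 fold change 0.19 ± 0.21, adjusted p = 0.49, edgeR). Of 9 other long noncoding RNA genes, 4 were called higher (44.4%, against 23.5% of all tested genes) and 2 lower (22.2%, near the 22.5% of all tested genes), with a median log2 fold change of 0.40. Miat had 116, 153 and 155 CPM with butyrate, against 1.98, 2.41 and 2.27 CPM in control (log2 fold change 5.98 ± 0.18, adjusted p = 1.8e-06, edgeR). Pvt1, the neighbour of Myc, was higher at 1.18 ± 0.11 (adjusted p = 9.3e-05), and Neat1, the scaffold of paraspeckles, lower at -0.91 ± 0.12 (adjusted p = 0.00051). Norad was lower at -0.27 ± 0.08 (adjusted p = 0.022), a call lost without butyrate replicate 1 or 2 or control replicate 1 or 3 (0.051 to 0.094) and with upper quartile scaling (0.082). Meg3 had 62 counts over the butyrate libraries and 0 in every control library, at least 21.3-fold higher against a floor of 3 counts over the control group, and the median of the list is the same with Meg3 at that bound.

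Among 16 translation genes of the 5′ TOP class that are not ribosomal proteins, 8 were called higher (50%, against 23.5% of all tested genes) and 0 lower (against 22.5%), with a median log2 fold change of 0.33. Rack1 stands in this list too. Eef2, the elongation factor that moves the ribosome along, averaged 6051 ± 388 CPM with butyrate and 4374 ± 129 CPM in control (SD, n = 3 each, log2 fold change 0.47 ± 0.09, adjusted p = 0.0038, edgeR), and Eef1g, a subunit of elongation factor 1, was higher at 0.41 ± 0.08 (adjusted p = 0.0025). The number called was 5 without control replicate 3.

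**Figure D5:**
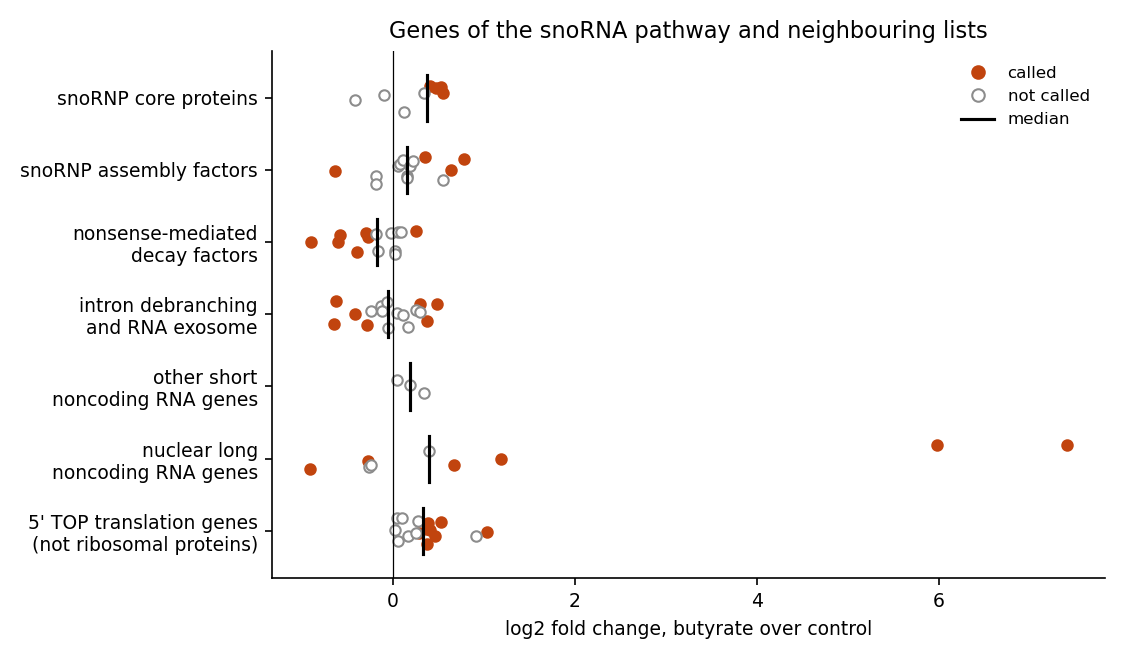
Log2 fold change, butyrate over control, of the tested genes of 7 lists; filled points were called by edgeR and the vertical tick is the median of the list. The decay factors lie mostly at or below 0, the 5′ TOP translation genes at or above 0, and the 2 points farthest right are Miat and Meg3, whose fitted value depends on the prior count because Meg3 had no control counts.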

How the data were processed

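The deposited data are raw counts of reads, unnormalized, in a single table with gene numbers as rows and the 6 libraries as columns. Per the submitters' processing notes, the tools were CASAVA, TopHat, Picard, featureCounts, Subread and edgeR with the genome mm10. What each tool did, its version, the strand setting and the handling of reads shared between copies are not stated. Of the 27179 gene numbers, RefSeq (GRCm38.p6, the assembly behind mm10) named 25275 and GENCODE another 18, and the 1886 without a name (0.961% to 1.20% of counts) stayed in the tests. Gene coordinates are those of RefSeq, 1-based.

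The groups were compared in edgeR 4.0.16 under R 4.3.3 (quasi-likelihood test, TMM scaling). The filterByExpr rule kept 11740 genes, p-values were adjusted by Benjamini-Hochberg over all of them, and a gene was called at an adjusted p under 0.05. CPM are counts over the TMM-scaled total of the tested genes. A count of 0 allows up to 3 counts, which equal 0.487 to 0.556 CPM, and this limit covers counting error only. The code was tested on simulated data in which 200 genes were changed. No 2 libraries of a group agreed within counting noise (chi-square over its degrees of freedom, genes of 20 or more counts, 5.43 to 10.6), and all 6 were kept as replicates. Same-numbered libraries deviated together from their group means (r of 0.362, 0.197 and 0.353), so a fit with the replicate number as a block was added. The labels do not say that these libraries are paired, and the main fit left the block out. Calls given without a named fit are from the main fit, which called 5393 genes, against 6315 with the block. The fit with the block is given where it changes the call of a named gene.

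Alternatives were 3 other scalings (RLE, upper quartile, total count), no filter, a minimum of 5 CPM in 3 libraries, DESeq2 1.42.0 and limma voom (limma 3.58.1). Further ones were the replicate block, each library left out, and member minimums of 10 and 100 counts. DESeq2 was run without the filterByExpr rule, over 14357 tested genes. Whether a call lost with DESeq2 came from the method or from the missing filter was not tested. The text names every tested host, every called snoRNA, the 6 snoRNAs with most counts, the genes enclosing these, and of each list up to 3 called genes per direction by smallest p, or the most abundant gene where none was called. Members and lists were chosen with earlier results of these data known. A gene that this rule would name is not reported here.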

Additional observations from a re-analysis of the deposited data

How the results depend on the processing

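The 8 host calls and the host median log2 fold change (0.47 to 0.62 with 1 library left out) kept their direction under every alternative, and the number of hosts called ran from 6 to 12. Snhg5, Snhg17, Snhg4, Snhg16, Snhg12 and Snhg20 were called under all 14. The 7 snoRNA calls depended on the processing. The number was 14 with upper quartile scaling, 3 of 15 with at least 5 CPM in 3 libraries, 1 of 64 with DESeq2 and 11 with the replicate block. It was 2 to 5 with 1 library left out, where the arm of 2 libraries shares the spread of the other group. The cause was not tested, except that the CPM filter leaves fewer snoRNAs to test. Snora73a turned to -0.14 without butyrate replicate 2. The snoRNA median ran from 0.36 to 0.47 with 1 library left out.

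With 1 library left out the calls numbered 15 to 26 for enclosing genes, 3 to 6 for nonsense-mediated decay factors, 4 to 7 for the debranching and exosome list, 2 to 5 for snoRNP core proteins and 5 to 8 for the 5′ TOP translation list. Upper quartile scaling called 4 decay factors and DESeq2 called 3 of the debranching and exosome list. Over all genes 5393 were called, against 4509 to 5185 with 1 library left out. The replicate block changed the calls given beside the results and, of the tested members, enclosing genes and list genes that the text names, no other, and no such call was lost. With the block the calls numbered 34 for enclosing genes, 7 for decay factors and 10 for the debranching and exosome list. They numbered 6 for assembly factors, 5 for core proteins, 10 for the 5′ TOP translation list and 7 for the other long noncoding RNA genes. Over all genes the block called 6315. Depth limits single snoRNAs: 19 of 64 had too few counts for the test.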

Other observations

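Host symbols under the minimum of 30 counts were Snhg11, Snhg14, Snhg9, Snhg7os and Snhg18. Snhg11 had 5, 3 and 10 counts in the butyrate libraries, against 0, 0 and 0 in the control libraries. Snhg14, the long transcript of the imprinted Snrpn region, had 1, 4 and 5 counts with butyrate, against 0, 2 and 4 in control. Snhg9, which encloses Snora78, had 1, 2 and 1 counts with butyrate, against 1, 0 and 0 in control. These were not tested.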
